A study of Equus caballus with 4 samples.

Results

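The carriers that move amino acids and monocarboxylates such as lactate and pyruvate across cell membranes were examined in equine satellite cells (ESC), the stem cells of horse skeletal muscle. They were all genes whose symbol on the array belonged to 1 of 8 solute carrier families, SLC1, SLC3, SLC6, SLC7, SLC16, SLC36, SLC38 and SLC43. The rule reads the symbol alone and no measured value. This gave 64 of the 24998 gene names on the array, carried by 106 of its 43603 probes. One of the names, *SLC7A6OS*, is the neighbor of *SLC7A6* on the opposite strand and is no transporter, so the families held 63 transporter genes.

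The cells came from the semitendinosus muscle of 6-month-old stallions and had differentiated for 3 days in culture. In the HMB-treated group, the medium held 50 µM HMB (beta-hydroxy-beta-methylbutyrate, a metabolite of leucine) for 24 h, and 3 mM H2O2 was added for the last 1 h. The control group received the same H2O2 without HMB, so the oxidant was common to both groups, and cells without H2O2 were not analysed here. On each of 4 arrays the RNA of HMB-treated cells carried the dye Cy5 and that of control cells the dye Cy3. The dyes were never swapped, and hence the effect of HMB and that of the dye cannot be told apart. All 4 arrays lay on 1 slide. The labels give 4 biological replicates of the HMB-treated cells but the same replicate number for the control on every array. Should this mean that 1 control RNA was used throughout, its spread is missing from the errors. According to the methods the culture with the best scores was selected from those of all horses, so n = 4 need not stand for 4 animals.

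Amino acids cross membranes on carriers of several designs. Members of SLC1 and SLC6 couple the substrate to sodium, and most light chains of SLC7 exchange 1 amino acid for another and reach the cell surface bound to a heavy chain of SLC3. SLC38 and SLC36 import small neutral amino acids, SLC43 holds facilitators for large neutral amino acids such as leucine, and SLC16 holds the monocarboxylate transporters, several of which move lactate and pyruvate together with a proton. In muscle, these routes bring in leucine, arginine, glutamine, creatine and the cystine used for glutathione, and they release lactate.

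The probes of 4 members are printed because they show what was hybridized for the genes described in most detail. The capitals mark TTTGGCTA, the longest run of bases shared by the probes of *SLC7A3* and *SLC7A4*, 2 related SLC7 genes that changed in opposite directions. All are 60 bases long, in the orientation of the deposited scanner files.
SLC7A3: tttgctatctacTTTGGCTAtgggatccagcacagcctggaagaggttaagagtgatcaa
SLC7A4: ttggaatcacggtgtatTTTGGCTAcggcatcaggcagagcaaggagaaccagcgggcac
SLC6A8: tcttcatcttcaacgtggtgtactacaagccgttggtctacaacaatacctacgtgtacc
SLC43A1: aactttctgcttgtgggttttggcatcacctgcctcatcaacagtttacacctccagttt

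Counting the shared run of 8 bases, the *SLC7A3* and *SLC7A4* probes were identical at 29 of 55 positions (52.7%) in their best alignment without gaps. On the EquCab1 build, to which the files refer, the *SLC7A3* probe lies on chrUn:261412638-261412697 (minus strand) and the *SLC6A8* probe on chrUn:275682022-275682081 (plus strand). The *SLC7A4* probe was placed on chr8:2425718-2425878 (plus strand), where its 60 bases span 161, and the *SLC43A1* probe on chrUn:243309045-243309358 (minus strand), where they span 314. The genomic match of the last 2 probes is therefore split. Exons and UTRs were not annotated for the probes used here.

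Of the 64 genes, 25 (39.1%) had at least 1 probe on which the same channel was well above background on all 4 arrays. Among all gene names, 55.9% met this condition, which gave 13976 genes that were tested. The log2 ratio of HMB-treated over control cells was averaged over the tested probes of a gene, and limma was used to test whether it differed from 0, each array being 1 replicate. Genes were called where the p adjusted over all genes tested (Benjamini-Hochberg) did not exceed 0.05 and the FC was at least 1.3. The share of spots well above background was 57.6% to 60.6% for Cy3 and 55.2% to 61.8% for Cy5. Across the tested probes, which are no independent replicates, the ratios of 2 arrays correlated with an r of 0.837 to 0.920. The precision is limited by the small number of arrays.

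The cells carried muscle markers, but their level differed between the groups. Of 10 myogenic markers, 7 were tested and 5 of them (*MYF5*, *MYH3*, *DES*, *NCAM1* and *CKM*) were lower in the HMB-treated group. *MYOD1* (log2 ratio 0.10) and *MYOG* (0.03) were not called. The summed signal over the 7 genes was 107000 to 121000 in the control channel and 37900 to 61500 in the HMB channel, lower on 4 of 4 arrays. Among fibroblast markers, 3 of 5 tested genes (*PDGFRA*, *DCN* and *LUM*) were higher, while *COL3A1* (0.32) and *COL1A2* (-0.18) were not called. The summed fibroblast signal was 146000 to 173000 in the control and 142000 to 226000 in the HMB channel, lower on 2 of 4 arrays. Of the leukocyte markers, 2 were tested and *CD68* was higher, with sums of 3650 to 4390 and 4130 to 6170. Of the markers of endothelium, adipocytes, and neurons and glia, 4 of 4, 2 of 3 and 2 of 4 were on the array. Of those on the array, 0 passed the filter. In bulk RNA, fewer cells of a type and less RNA per cell cannot be told apart. Whether these shifts had a part in the values of the transporters was not tested.

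Most of the measured transporters changed little, and 8 of the 25 tested genes were called, which is 32.0% against 28.9% of all genes tested. Lower expression in the HMB-treated group was found for 6 genes (24.0%, against 16.4% of all genes). These were the cationic amino acid transporter *SLC7A3*, the cystine carrier *SLC7A11*, the creatine transporter *SLC6A8*, the heavy chain *SLC3A1*, the monocarboxylate transporter *SLC16A7* and the glutamate transporter *SLC1A3*. Higher expression was found for 2 genes (8%, against 12.5%), the glutamate transporter *SLC1A2* and the SLC7 member *SLC7A4*. However, 4 of the 25 genes passed the filter through 1 channel, among them *SLC1A2* through the HMB channel and *SLC16A7* through the control channel, in each case the channel where the gene was higher. With both channels required, 6 of 21 genes were called (28.6%, against 25.9% of all genes), of which 1 was higher and 5 were lower. The median log2 ratio was -0.11 over the 25 genes and -0.06 over all genes tested, and the shares lay near those of all genes. With normexp or with no background correction before loess, *SLC7A3* and *SLC7A11* were the 2 genes still called. At these settings 1800 and 2393 of the 13976 genes tested were called, respectively. With scaling to spike-in RNA, which moved the median of all genes to -0.47, 20 members were lower and *SLC1A2* alone was higher. At that setting 9278 of the 13976 genes tested were called, 7.95% of them higher. The spike-ins with an intended ratio of 1 were not known, so this scaling may itself shift the ratios. In 12 of the 25 genes (48.0%) every array gave a ratio of the same sign, compared with 61.0% of all genes.

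**Figure D1:**
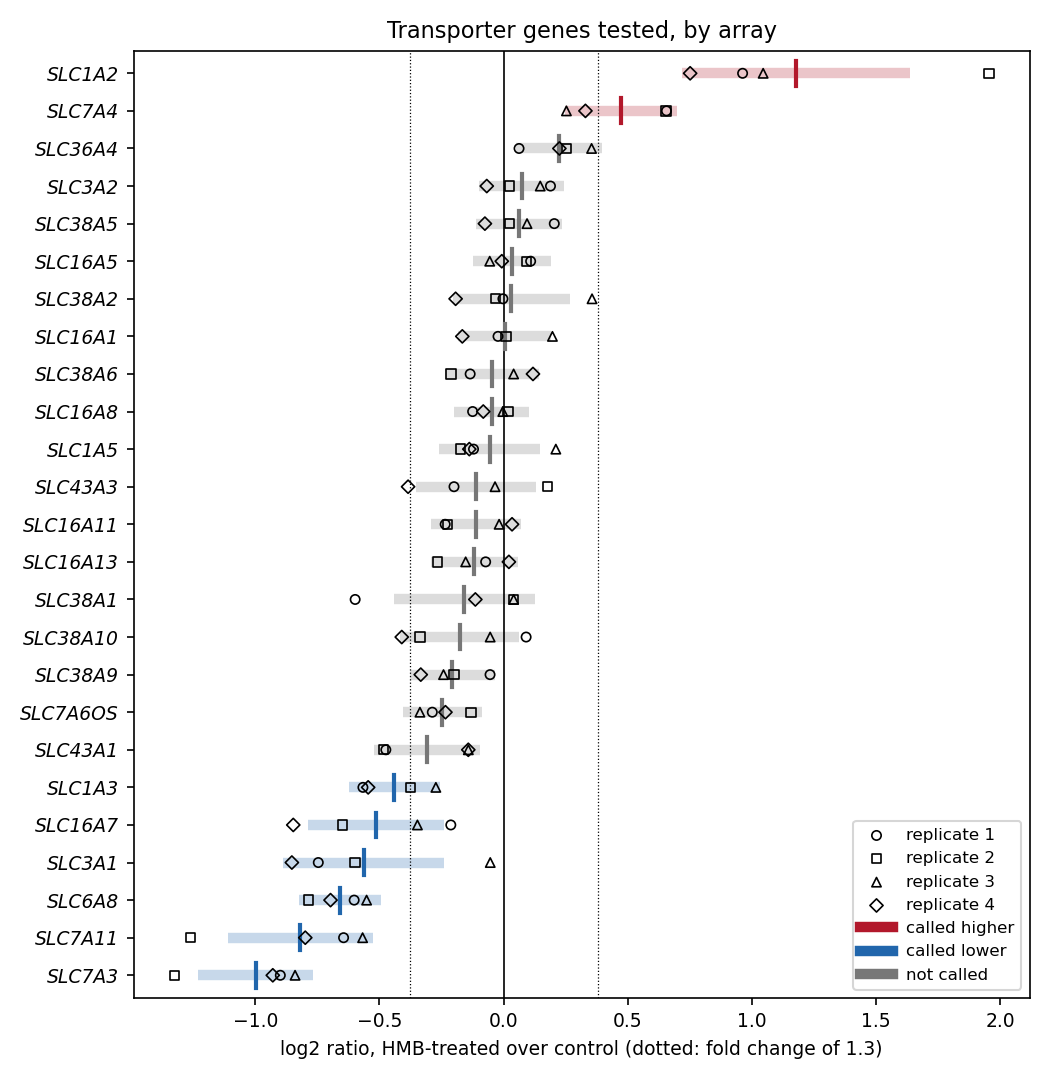
Log2 ratio of HMB-treated over control cells (horizontal axis) for the 25 tested genes, with 1 open symbol per array, a vertical bar for the mean and a band for the 95% confidence interval from limma. The 6 genes called lower lie below 0 on all 4 arrays and the 2 called higher lie above 0 on all 4, whereas most of the other genes straddle 0.

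*SLC7A3* had the largest fall of the tested members. The gene encodes a transporter of arginine, lysine and ornithine. Its log2 ratio was -0.90, -1.33, -0.84 and -0.93 on replicates 1, 2, 3 and 4. All arrays thus showed a similar fall, with replicate 2 the lowest. The mean was -0.999 ± 0.22 (SD, n = 4), an FC of 2.00, with an adjusted p of 0.000449. Both probes of the gene gave the same picture, with mean ratios of -0.98 and -1.02. On the brighter probe the processed signal was 860.5 to 944 in the control and 348.1 to 544.5 in the HMB channel, so the channels did not overlap.

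*SLC7A11*, the light chain that imports cystine in exchange for glutamate, also fell. Its ratios were -0.64, -1.26, -0.57 and -0.80, with the lowest value again on replicate 2. The mean was -0.82 ± 0.31 (SD, n = 4), an FC of 1.76, with an adjusted p of 0.00257. The signal of its single probe was 529.1 to 738 in the control and 220.6 to 497.8 in the HMB channel, and again the channels did not overlap. These genes, *SLC7A3* and *SLC7A11*, were the only members called under each of the 16 alternative settings, with ranges of the log2 ratio from -1.41 to -0.73 and from -1.23 to -0.60.

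*SLC7A4*, which resembles the cationic amino acid transporters in sequence, moved the other way. Its ratios were 0.66, 0.65, 0.25 and 0.33. Every array was above 0, with replicates 1 and 2 higher than replicates 3 and 4. The mean was 0.47 ± 0.21 (SD, n = 4), an FC of 1.39, with an adjusted p of 0.00774. The signal was 90.2 to 134.6 in the control and 113.4 to 161.5 in the HMB channel. The call was lost with the methods' t-test, with both other background corrections, and with scaling to spike-in RNA, where the log2 ratio was 0.06.

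The last tested name among the SLC7 genes was *SLC7A6OS*, the gene that is no transporter. Its log2 ratio was -0.25 ± 0.09 (SD, n = 4), with an adjusted p of 0.0234 and an FC below the threshold. Several SLC7 genes were not measurable on all arrays. The probe of *SLC7A5*, the main leucine-importing light chain, passed the background test on only 2 arrays per channel, with ratios of -0.38, -0.48, 0.20 and -0.07. The probe of *SLC7A1*, the widespread cationic amino acid transporter, passed on 2 arrays in the control and 1 in the HMB channel, with ratios of -0.67, -0.46, 0.28 and -1.06. Both genes had values on either side of 0. *SLC7A2*, another transporter of this kind, passed on 1 of 8 readings of its 2 probes in the control channel and 0 in the HMB channel. The light chain *SLC7A8* passed on 0 arrays.

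Some transporters of these families were named on the array only in the description of the probe and so lay outside the rule. There were 8 such transcripts, and 2 of them were tested. *SLC7A7*, the light chain that exports cationic in exchange for neutral amino acids, had ratios of -1.02, -0.79, -0.82 and -0.99. The fall was alike on all arrays, with a mean of -0.90 ± 0.11 (SD, n = 4) over 3 probes and an adjusted p of 0.000199. It was called in 16 of 16 alternative settings. *SLC7A6*, which encodes the closely related light chain, had a log2 ratio of -0.15 ± 0.06 (SD, n = 4) and an adjusted p of 0.09.

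The heavy chains of SLC3 bring the light chains to the membrane. *SLC3A2*, the heavy chain shared by *SLC7A5*, *SLC7A6*, *SLC7A7*, *SLC7A8* and *SLC7A11*, had ratios of 0.19, 0.02, 0.15 and -0.07. The mean of 0.07 ± 0.12 (SD, n = 4) had an adjusted p of 0.431, and the 95% confidence interval ran from -0.10 to 0.24, which allows an FC of at most 1.19. This limit holds for the reported normalization. With scaling to spike-in RNA the log2 ratio of *SLC3A2* was -0.34, and the gene was not called. *SLC3A1*, the partner of the light chain *SLC7A9*, fell. Its ratios were -0.75, -0.60, -0.05 and -0.85, so that replicate 3 lay close to 0 and apart from the others. The mean was -0.56 ± 0.36 (SD, n = 4), with an adjusted p of 0.0157. Its 2 probes gave -0.45 and -0.67, the latter above background in the HMB channel on 2 of 4 arrays. With both channels required, the gene was still called, at -0.45. It was not called without replicate 2 (log2 ratio -0.55, adjusted p = 0.0512) or without replicate 4 (-0.47, adjusted p = 0.0516), with the methods' t-test (adjusted p = 0.107), with the other background corrections (-0.18 and -0.20) or without the filter on dim probes (adjusted p = 0.091). *SLC7A9* itself passed the background test on 0 of 8 readings of its 2 probes.

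**Figure D2:**
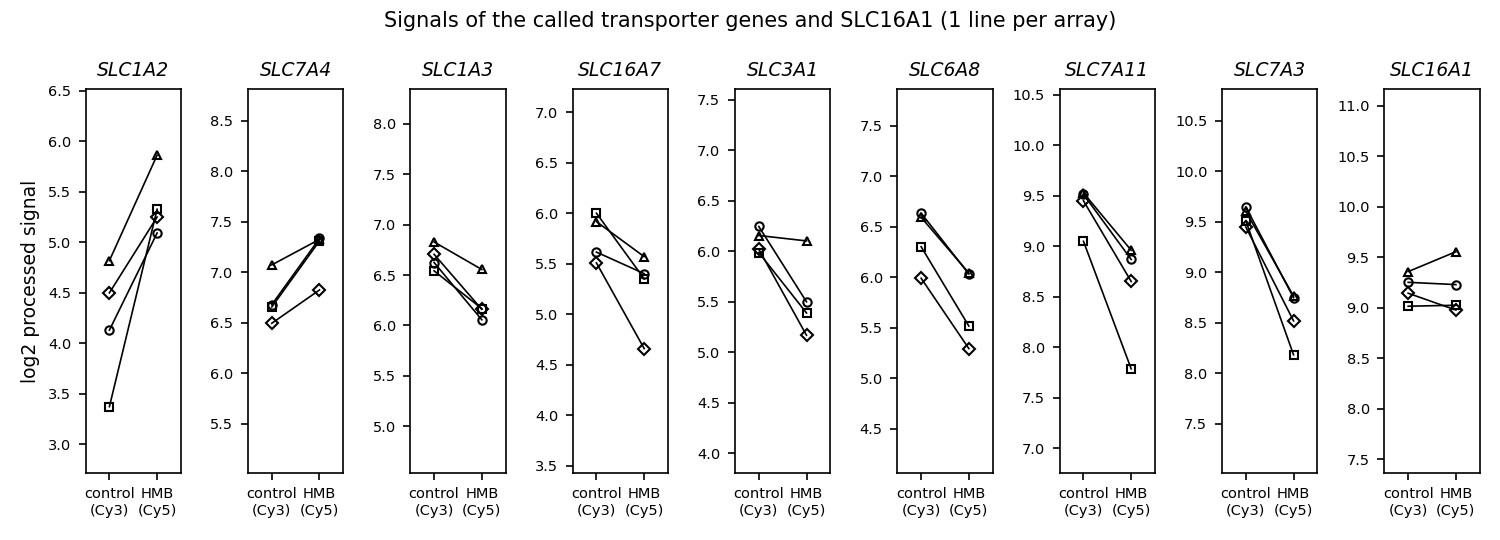
Processed signal on a log2 scale (vertical axis, 1 panel per gene with its own range of equal width) in the control (Cy3) and the HMB (Cy5) channel of each array for the called genes and *SLC16A1*, as the mean over the tested probes of a gene. Each line is 1 array. The lines of *SLC7A3*, *SLC7A11* and *SLC6A8* fall on all 4 arrays, that of *SLC3A1* is nearly flat on replicate 3, and those of *SLC16A1* are flat or turn either way.

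In SLC1, which holds the glutamate transporters and the exchangers for alanine, serine, cysteine and glutamine, the 3 tested genes went 3 ways. *SLC1A3* fell, with ratios of -0.57, -0.37, -0.27 and -0.55 and a mean of -0.44 ± 0.14 (SD, n = 4), an FC of 1.36 with an adjusted p of 0.00466. The value on replicate 2 rests on 1 of its 2 probes, since the spot of the other was marked as an outlier. The call of *SLC1A3* was lost with normexp (log2 ratio -0.16) and without background correction (-0.20). *SLC1A5*, the glutamine exchanger, had ratios of -0.12, -0.17, 0.21 and -0.14 and a mean of -0.06 ± 0.18 (SD, n = 4), with an adjusted p of 0.618.

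*SLC1A2*, a glutamate transporter best known from astrocytes, was higher in the HMB-treated group. Its ratios were 0.96, 1.96, 1.05 and 0.75, with the highest value on replicate 2. The tested probe was not well above background in the control channel on any array, while the HMB channel was above background on all 4. The control level is therefore only a bound. With the control set to a floor for the dim channel, the mean signals differed 1.84-fold. This value was given without an error and is no lower limit of the change. The confidence interval of the fit began at a log2 ratio of 0.72 and replicate 4 had 0.75, both below it. The adjusted p of the fit was 0.00363. Since the gene was tested only because its HMB channel was bright, this p adds no support of its own. The signals were dim, at 10.34 to 28.16 in the control and 34.07 to 58.13 in the HMB channel. A second probe, which was above background only in the HMB channel and on 3 arrays, was not tested and had ratios of 1.09, 2.47, 2.66 and 1.71. With normexp in place of plain background subtraction the log2 ratio of *SLC1A2* was 0.15 and without background correction 0.31, and neither was called.

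Of the other SLC1 genes, none passed the filter. *SLC1A4*, an exchanger of alanine, serine and cysteine, passed on 2 arrays in the control and 1 in the HMB channel and had ratios of -0.38, -0.32, -0.03 and -0.83. *SLC1A1* and *SLC1A7* each passed on 1 reading per channel.

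SLC6, whose members couple neurotransmitters, osmolytes and creatine to sodium and chloride, was the least measurable family. It had 16 genes, of which 15 were not tested and 11 had no probe above background on any array. *SLC6A8*, which brings creatine into muscle, was the single tested gene and fell. Its ratios were -0.60, -0.79, -0.55 and -0.70, a narrow spread around a mean of -0.66 ± 0.10 (SD, n = 4). The FC was 1.58 and the adjusted p 0.000636. On each array the HMB channel was lower, at 39.21 to 65.87 against 63.56 to 99.29 in the control, although the ranges of the channels overlapped slightly. The call was lost with normexp (log2 ratio -0.24) and without background correction. *SLC6A6*, the taurine transporter, had 1 probe, which passed on 0 arrays.

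**Figure D3:**
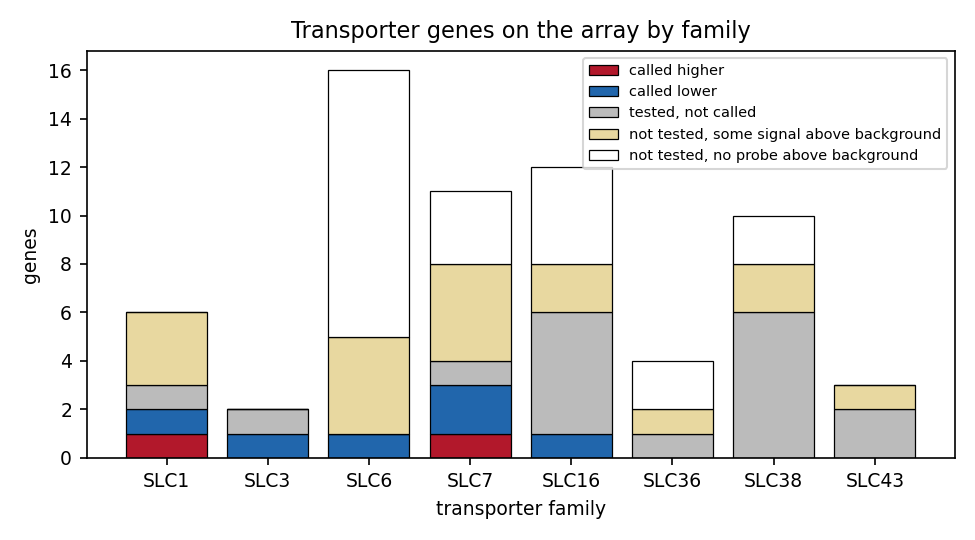
Number of genes on the array in each family (vertical axis, genes), divided into those called higher, called lower, tested but not called, and not tested with or without a probe above background on any array. SLC6 has 16 genes but 1 tested, whereas 6 of 12 SLC16 and 6 of 10 SLC38 genes were tested, and 0 of these SLC38 genes were called.

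Among the monocarboxylate transporters of SLC16, 6 of 12 genes were tested and 1 was called. *SLC16A1*, the carrier of lactate and pyruvate found in most cells, had ratios of -0.02, 0.01, 0.20 and -0.17. The groups could not be separated, with a mean of 0.00 ± 0.15 (SD, n = 4), an adjusted p of 0.967, and a 95% confidence interval from -0.18 to 0.19 that allows an FC of at most 1.14. This limit holds for the reported normalization. With scaling to spike-in RNA the log2 ratio of *SLC16A1* was -0.41 and the gene was called lower. One of its probes was printed in 5 spots, and the 20 values of these spots lay between -0.11 and 0.11. The largest deviations came from its other probe, which reached 0.38 on replicate 3 and -0.26 on replicate 4. *SLC16A3*, the lactate carrier of glycolytic muscle, was not analysed here.

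*SLC16A7*, a carrier with a high affinity for pyruvate, was called lower. Its ratios were -0.21, -0.65, -0.35 and -0.85, all below 0 but widely spread. The mean was -0.51 ± 0.29 (SD, n = 4), an FC of 1.43, with an adjusted p of 0.0122. The tested probe was dim, with 45.46 to 63.96 in the control and 25.27 to 47.47 in the HMB channel, and the latter was well above background on 3 of 4 arrays. As it passed the filter through the brighter control channel alone, the p adds no support of its own. A second probe, which did not pass the filter, had a mean ratio of -0.35. The call did not hold with the methods' t-test, with the other background corrections or without the filter on dim probes.

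The remaining SLC16 genes were not called. *SLC16A5* had a log2 ratio of 0.03 ± 0.08 over 5 probes, *SLC16A8* one of -0.05 ± 0.07, *SLC16A11* one of -0.11 ± 0.14 and *SLC16A13* one of -0.12 ± 0.12 (SD, n = 4 each). Their 95% confidence intervals allow an FC of at most 1.14, 1.15, 1.23 and 1.22, respectively. With scaling to spike-in RNA all 4 were called lower, with log2 ratios from -0.53 to -0.38. A second probe of *SLC16A8* did not pass the filter and had ratios of 0.81, 0.40, 0.51 and 0.88. The 4 genes with no probe above background were *SLC16A6*, *SLC16A9*, *SLC16A12* and *SLC16A14*. *SLC16A10*, a carrier of aromatic amino acids, passed on 1 of 8 readings, in the HMB channel alone.

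SLC38, whose members import glutamine and other small neutral amino acids with sodium, showed no call among 6 tested genes. The median log2 ratio was -0.10, and the genes lay between -0.21 and 0.06. *SLC38A2*, the carrier that cells raise when amino acids run short, had ratios of -0.00, -0.03, 0.36 and -0.19 with a mean of 0.03 ± 0.23 (SD, n = 4) and an adjusted p of 0.81. Replicate 3 alone was clearly above 0. *SLC38A9*, the lysosomal member that reports arginine to mTORC1, had ratios of -0.05, -0.20, -0.24 and -0.33, all below 0. Its mean of -0.21 ± 0.12 (SD, n = 4) had an adjusted p of 0.0525. *SLC38A1* had a mean of -0.16 ± 0.30 with -0.60 on replicate 1 and values from -0.11 to 0.04 on the others. For *SLC38A5*, *SLC38A6* and *SLC38A10* the means were 0.06, -0.05 and -0.18, and each had values on both sides of 0.

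*SLC43A1*, a facilitator for leucine and other large neutral amino acids, lay just short of a call. Its ratios were -0.47, -0.48, -0.14 and -0.14, lower on all arrays but in 2 pairs, with replicates 1 and 2 below replicates 3 and 4. The mean was -0.31 ± 0.19 (SD, n = 4), with an adjusted p of 0.0292 and an FC below 1.3. Its brighter probe alone had a mean of -0.39 and was called, while the probe printed above had -0.23 (adjusted p = 0.0664). *SLC43A3*, a relative, had a log2 ratio of -0.11 ± 0.24. The related leucine facilitator *SLC43A2* was above background on 2 arrays in the control channel and 0 in the HMB channel, and so was not tested. Its ratios were -1.17, -1.26, -1.06 and -1.34.

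In SLC36, the proton-coupled amino acid transporters, 1 of 4 genes was tested. *SLC36A4* had ratios of 0.06, 0.25, 0.35 and 0.22, above 0 on all arrays. The mean was 0.22 ± 0.12 (SD, n = 4), with an adjusted p of 0.0431 and an FC below the threshold. *SLC36A1*, the lysosomal and plasma membrane carrier of small amino acids, passed on 1 array per channel with ratios from -0.11 to 1.01.

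**Figure D4:**
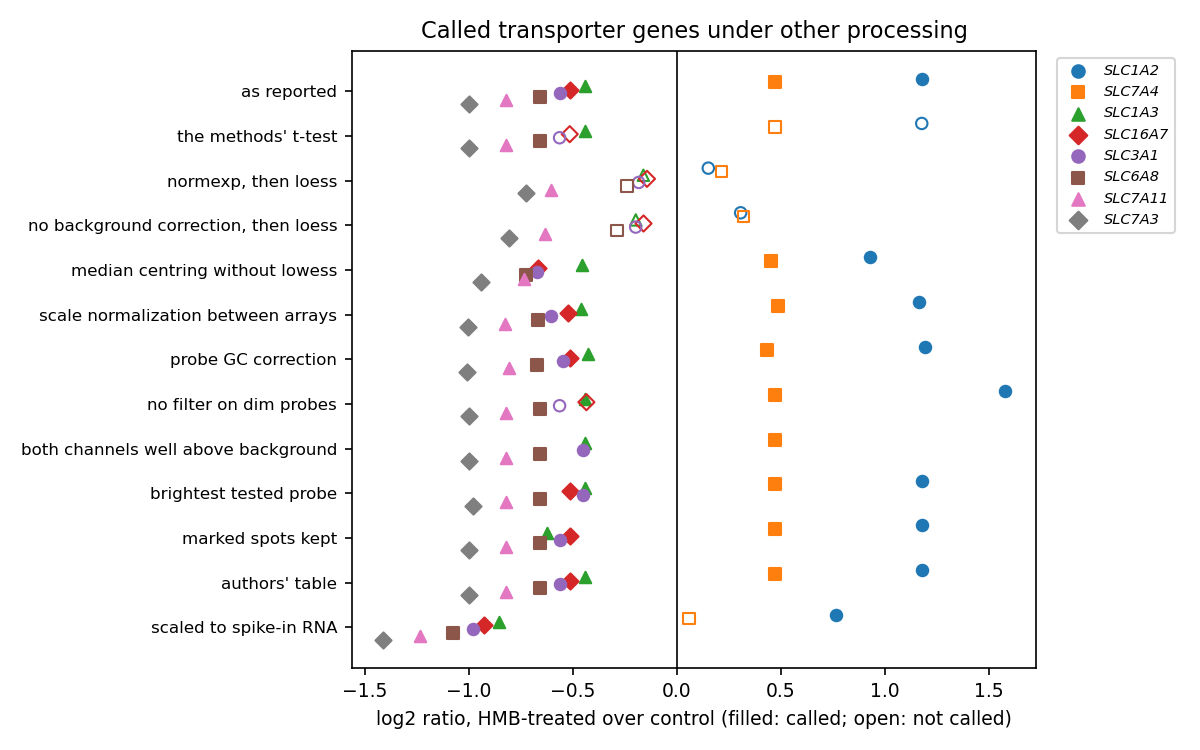
Log2 ratio of HMB-treated over control cells (horizontal axis) of the 8 called genes as reported and under 12 other ways of processing (rows); filled symbols were called and open ones were not. *SLC7A3* and *SLC7A11* stay filled in every row, and the other 6 are open and nearer 0 in the rows for normexp and no background correction. *SLC1A2* and *SLC16A7* have no value in the row that asks for both channels above background.

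Related genes were taken from 8 lists of partners, substrates and regulators of these carriers. Of the 86 tested genes in the lists, 9 were higher and 17 lower, against 6 and 6 with normexp and 4 and 52 with scaling to spike-in RNA. As reported, the shares of 10.5% and 19.8% lay near the 12.5% and 16.4% of all genes. Of all 13976 genes, 1800 were called with normexp (57.1% of them higher) and 9278 with scaling to spike-in RNA (7.95% of them higher). With both channels required, 79 of the listed genes were tested, of which 9 were higher and 13 lower. Among all genes at that setting, 11.8% were higher and 14.1% lower. *NEDD4L*, *LDHC*, *LDHD*, *DEPDC5* and *FNIP2* had no value at that setting, so their calls rest on a filter passed through 1 channel. The monocarboxylate transporters need a partner glycoprotein to reach the membrane. *BSG*, the partner of *SLC16A1*, had ratios of 0.62, 0.04, 0.55 and 0.31 and a mean of 0.38 ± 0.26 (SD, n = 4), with an adjusted p of 0.0283. Its FC only just passed the threshold, the call was lost without replicate 1, 3 or 4 (log2 ratio 0.30, 0.32 and 0.40), and scaling to spike-in RNA turned the value to -0.03. The call was also lost with the methods' t-test, normexp, the probe GC correction and no filter on dim probes. *BSG* was thus called in 8 of 16 alternative settings. The partner *NPTN* had a log2 ratio of -0.06, and *EMB*, the partner of *SLC16A7*, was not tested.

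Of 12 tested genes of lactate and pyruvate handling, 4 were lower and 0 higher, with a median log2 ratio of -0.07. The share called was 33.3%, against 28.9% of all genes, and the share lower was 33.3%, against 16.4%. The lower genes were *LDHC*, the testis form of lactate dehydrogenase (-0.86), *LDHD*, which uses D-lactate (-0.75), *PDHA1*, a subunit of pyruvate dehydrogenase (-0.48), and *PDK3*, a kinase that inhibits it (-0.38). The main muscle forms were not called, with 0.35 for *LDHA* (adjusted p = 0.00712, FC below 1.3) and -0.01 for *LDHB*. With normexp none of *LDHC* (-0.24), *LDHD* (-0.09) and *PDK3* (-0.16) was called, and without the filter on dim probes *LDHC* had -0.15. *LDHC* and *LDHD* had no value with both channels required. The call of *PDK3* was also lost without replicate 2 (log2 ratio -0.28) or replicate 3 (adjusted p = 0.0678).

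Several carriers, *SLC7A11*, *SLC3A2* and *SLC38A2* among them, are known targets of *ATF4*, the transcription factor of the amino acid response. Among 28 tested genes of this response, 2 were higher and 3 lower (17.9% called, against 28.9% of all genes), and the median was -0.05. *WARS*, the tryptophanyl-tRNA synthetase, rose by 1.43 ± 0.27 and the stress protein *NUPR1* by 0.43 ± 0.24. The glycyl-tRNA synthetase *GARS* (-0.58), the serine synthesis enzyme *PSPH* (-0.57) and the cystathionine synthase *CBS* (-0.39) fell. The other 5 tested tRNA synthetases of the list lay between -0.28 and 0.13. *ATF4* itself had a log2 ratio of 0.02, asparagine synthetase *ASNS* -0.23, *TRIB3* -0.17 and *DDIT3* 0.18, and these 4 were not called. *CBS* was not called without replicate 2, 3 or 4 (log2 ratio -0.30, -0.31 and -0.41) nor *NUPR1* without replicate 3 or 4 (0.38 and 0.34). *CBS* was called in 7 of 16 alternative settings. *NUPR1* was also not called with the methods' t-test, without the filter on dim probes or with scaling to spike-in RNA (0.01). With median centering *GARS* had -0.23 and was not called.

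The cystine that *SLC7A11* imports is used for glutathione. Of 8 tested genes of glutathione synthesis and cystine reduction, 1 was called (12.5%, against 28.9% of all genes), *GGT7* at -0.53 ± 0.03. The subunits of the enzyme that starts glutathione synthesis, *GCLC* and *GCLM*, had -0.30 and -0.17, and the thioredoxin reductase *TXNRD1* had 0.05. The median of the list was -0.15.

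Amino acids that enter the cell are sensed upstream of mTORC1. Of 19 tested genes of this pathway, 4 were lower and 1 higher (26.3% called, against 28.9% of all genes), with a median of -0.09. The log2 ratio of the sestrin *SESN1* was -1.18 ± 0.34 (SD, n = 4), with an adjusted p of 0.000809. *DEPDC5* (-0.70) and *NPRL3* (-0.54), subunits of the GATOR complex that restrains mTORC1, and the folliculin partner *FNIP2* (-0.40) also fell, while *WDR59* of the opposing GATOR complex rose by 0.51. *MTOR* had -0.17 with an adjusted p of 0.0542. With normexp *DEPDC5* (-0.10), *NPRL3* (-0.16), *FNIP2* (-0.07) and *WDR59* (0.13) were not called. *DEPDC5* and *FNIP2* had no value with both channels required. *FNIP2* was not called without replicate 2 (log2 ratio -0.28), and without the filter on dim probes its value was 0.40.

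Among 7 tested genes that regulate carriers or their place in the membrane, 3 were higher and 1 lower (57.1% called, against 28.9% of all genes). The transcription factor *MYC* rose by 0.90, *CD44*, which stabilizes *SLC7A11*, by 0.68, and the kinase *SGK1* by 0.44. The ubiquitin ligase *NEDD4L*, which removes carriers from the membrane, fell by 1.14, but was not called with normexp (-0.27). It had no value with both channels required. With scaling to spike-in RNA neither *CD44* (0.27) nor *SGK1* (0.02) was called. Of 6 tested carriers of amino acids and peptides in other families, 1 was higher and 3 lower (66.7% called, against 28.9% of all genes). The share lower was 50.0%, against 16.4%. *SLC15A3*, the lysosomal carrier of histidine and short peptides, had the largest change of all the related genes. Its ratios were 3.27, 3.24, 3.51 and 2.59, with a mean of 3.15 ± 0.39 (SD, n = 4) and an adjusted p of 2.34e-05. *SLC17A5* (-0.47), *SLC25A13* (-0.46) and *SLC25A38* (-0.43) fell, and with normexp (-0.15, -0.17 and -0.12) they were not called.

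Osmolyte genes were listed because *SLC6A6* and *SLC6A12* carry osmolytes. *SLC5A3*, the sodium-coupled carrier of myo-inositol, rose by 1.40 ± 0.17 (SD, n = 4), with ratios of 1.34, 1.40, 1.23 and 1.63, and the aldose reductase *AKR1B1* fell by 0.69. With normexp the log2 ratio of *SLC5A3* was 0.28 and was not called. Of the 4 tested genes in the osmolyte list, 1 was higher and 1 lower (50.0% called, against 28.9% of all genes), with a median of 0.01.

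**Figure D5:**
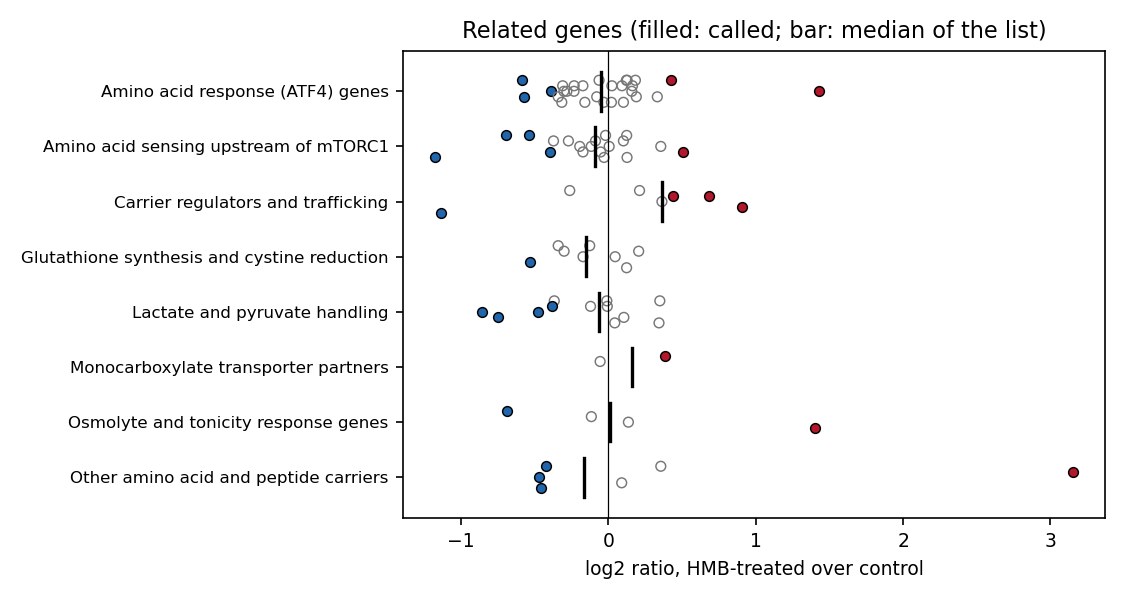
Log2 ratio of HMB-treated over control cells (horizontal axis) of the tested genes in the 8 related lists, with 1 circle per gene, filled red where called higher and blue where called lower, and a black bar at the median of the list. Medians lie between -0.17 and 0.36, and *SLC15A3* stands far to the right at 3.15.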

How the data were processed

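Gene expression was measured on 4 two-color Agilent horse arrays with probes of 60 bases. The authors' scanner files give, as intensity values, the brightness of each spot per channel and its processed signal, from which the background had been subtracted before linear and lowess normalization within each array. The deposited log10 values are ratios of Cy5 over Cy3 written by Feature Extraction (version 10.10.1.1 in the file headers, EquCab1 build), and a separate table by the authors repeats these ratios to within 3.96e-05. A change of base turned the deposited log10 ratios to the log2 values given here. Signals at or below background had been replaced by a surrogate, so the ratio of a dim probe can be compressed.

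Controls were removed, as were non-uniform spots and outliers, and repeat spots of 1 probe were averaged. Probes were tested if the red or the green channel was well above background on all 4 arrays and at least 3 ratios remained. Tests used limma 3.58.1 in R 4.3.3 (intercept model, empirical Bayes, Benjamini-Hochberg over 13976 genes) in place of the methods' t-test, which was an alternative. The other alternatives were normexp (offset of 50) or no background correction before loess, median centering, scale normalization, a probe GC correction, other probe filters and summaries, the authors' table, and each replicate left out. Scaling to spike-in RNA was added after the data were seen. The members (the families in the rule), lists and tests were chosen with earlier results of these data known. Members may be named, except that 1 untested member is counted but not reported here. Described in full are called members and a list of the main amino acid, creatine, taurine and lactate carriers, and from each related list up to 4 called genes plus a few listed regulators and enzymes. On simulated data with 200 of 13976 genes changed, limma recovered 82.5% of them with 6 false calls. The simulation held no dye effect and no shared control, so its false calls need not match those in these data.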

Additional observations from a re-analysis of the deposited data

Results flagged for a closer look

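*SLC1A5*, the glutamine exchanger, stood out for 1 array. Its log2 ratio was 0.21 on replicate 3, against -0.12, -0.17 and -0.14 on replicates 1, 2 and 4, and by Dixon's test the gap was wider than expected for 4 values of 1 group. The test was made for 25 members and 36 related genes and marked 1 and 0 of them, where chance marks about 1 in 20 groups.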

How the results depend on the processing

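*SLC7A3* and *SLC7A11* were called under all 16 settings. Against 8 members called (2 higher and 6 lower, median -0.11), the methods' t-test called 4 (0 higher), normexp 2 (0 higher, 2 lower, median -0.038), and no background correction 2 (0 higher, 2 lower, median -0.026). With both channels above background 1 was higher, and without the filter on dim probes the median was -0.051. Scaling to 10 spike-in RNAs, added after seeing the data, shifted all genes to a median of -0.47 and called 21 members (1 higher, 20 lower, median -0.53). Of all genes tested, 4045 were called as reported, 2753 with the methods' t-test, 1800 with normexp and 2393 without background correction. Median centering called 4315 and scaling to spike-ins 9278. Related genes called higher were 14 with median centering and 4 with spike-ins, and those called lower were 6 with normexp, 7 without background correction and 52 with spike-ins. With 1 replicate left out, 7 to 8 members were called (2 to 2 higher, 5 to 6 lower), the median was -0.14 to -0.07 (-0.07 without replicate 1 or 2), and related genes were 8 to 12 higher and 15 to 19 lower.

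Of all 4045 called genes 43.2% were higher, against 57.1% with normexp, 62.1% without background correction and 7.95% with spike-ins. Signs turned only in members that were not called. With spike-ins they became -0.41 for *SLC16A1*, -0.38 for *SLC16A5*, -0.19 for *SLC36A4*, -0.38 for *SLC38A2*, -0.35 for *SLC38A5* and -0.34 for *SLC3A2*. Normexp gave 0.0133 for *SLC16A8* and 0.0594 for *SLC43A3*, no background correction 0.0065 for *SLC16A8*, 0.0217 for *SLC1A5* and 0.0239 for *SLC38A6*, median centering 0.0266 for *SLC1A5*, and no filter 0.30 for *SLC16A8* and 0.22 for *SLC43A3*. *SLC16A1* was -0.0102 with scale normalization and -0.0108 with its brightest probe. With 1 replicate left out, *SLC16A1* ranged from -0.0598 to 0.0612, *SLC38A2* from -0.0765 to 0.1067 and *SLC38A6* from -0.1018 to 0.008. The cause was not tested. Scaling to spike-ins with an intended ratio of 1 was not run, since the files do not name them. No paired analysis was possible because there is no second group of arrays to pair with, and the reported test already rests on the pairing of the channels within each array. Dim signals left 39 members untested.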

Other observations

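Among the 39 members that did not pass the filter, 22 had no probe above background on any array. When the filter was dropped, 1 of the 39 was higher and 3 were lower (10.3%, against 17.0% of all genes at that setting). *SLC6A12*, the betaine transporter, had ratios of 1.29, 1.20, 1.56 and 1.18 (adjusted p = 0.0059 with limma), although neither channel was above background on any array. *SLC43A2* had ratios of -1.17, -1.26, -1.06 and -1.34 (adjusted p = 0.00415), with the control channel above background on 2 arrays. The other 2, *SLC6A7* and *SLC7A2*, had means of -0.56 and -0.52. With signals at or below background, these values have no settled size.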
